A study of Homo sapiens with 16 samples.

Results

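Of the 63653 genes in the deposited tables of HCT116 cells, 614 on the main chromosomes carry a LINC symbol, the placeholder name given to long intergenic noncoding RNAs. The 73 described here are those with a locus of at least 300 bases and a mean of at least 0.5 FPKM over the 16 deposited runs, where FPKM counts fragments against transcript length in kilobases and against 1000000 mapped fragments. The other 541 fell below that level, and 29 further LINC genes on alternate or unplaced sequences were not considered. The genes were thus chosen by their measured mean FPKM, which is given as a description only. The lowest to enter were LINC00324 at 0.518 and LINC01011 at 0.5197 FPKM, and the highest left out were LINC00920 at 0.4984 and LINC00243 at 0.4976 FPKM.

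HCT116 is an established human colon cancer line. Inhibitor cells received 0.5 µM BIX 01294, a small molecule that blocks the histone methyltransferase G9a, and siRNA cells were transfected with a G9a small interfering RNA (siRNA) at 10 nM, each for 72 h. The cells called inhibitor control here are titled only G9a control, and the siRNA control cells G9a siRNA control. Taking the G9a control as the control of the inhibitor was read from these names. The labels do not describe the handling of either control. Each of the 4 groups had 2 libraries of total RNA, and each library had 2 sequencing runs, which were averaged (n = 2 libraries a group throughout). Nothing in the labels ties the libraries of a group to separate cultures, so the p-values reflect the spread between libraries alone, and part of it may be technical.

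G9a, encoded by EHMT2, places methyl groups on a lysine of histone H3 and is known for silencing genes in euchromatin. Long intergenic noncoding RNAs are transcribed by RNA polymerase II, mostly spliced and polyadenylated, and as a class are less abundant and more restricted to particular tissues than messenger RNAs. Some act in trans, as NORAD does by binding PUMILIO proteins in the cytoplasm, others mark or affect transcription near their own locus, and several loci named LINC have since been found to encode small proteins.

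The level of EHMT2 matched the siRNA labels. Scaled FPKM is FPKM divided by a factor for each library. EHMT2 was at 19.7 and 18.99 scaled FPKM in inhibitor libraries and 24.7 and 21.1 in inhibitor controls. It was at 4.67 and 4.53 in siRNA libraries and 15.9 and 17.8 in siRNA controls. The log2 fold change for the siRNA was -1.67 ± 0.09 (limma adjusted p = 0.000376). Both inhibitor control libraries lay away from the remaining 6. The ribosomal RNA gene RNA28S5 was at 210.1 and 40.9 scaled FPKM there and at 1048 to 18880 elsewhere. The nuclear RNA MALAT1 was at 230.0 and 189 scaled FPKM there and at 55.6 to 78.2 elsewhere. Of all 15019 genes tested, 46.7% had both inhibitor control libraries on 1 side of the other 6, 23.5% above and 23.2% below. Of the 73 LINC RNAs 22 did (30.1%), 7 above and 15 below. A difference between inhibitor and inhibitor control cannot be told apart from what sets these controls apart, so each of the 10 LINC RNAs called in that comparison is given beside the same inhibitor libraries against the siRNA controls. Of the 7 colon epithelial markers, EPCAM, KRT8, KRT18 and KRT19 lay between 73.3 and 257 scaled FPKM in every library. CDH1 was at or below 2.02 scaled FPKM, and VIL1 and CDX1 were at or below 0.408 and 0.0354 FPKM. The 8 markers of fibroblasts, which the study also grew, were at most 2.07 scaled FPKM (COL1A1), with LUM and FAP at 0. The 4 blood markers were at most 0.101 FPKM.

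**Figure D1:**
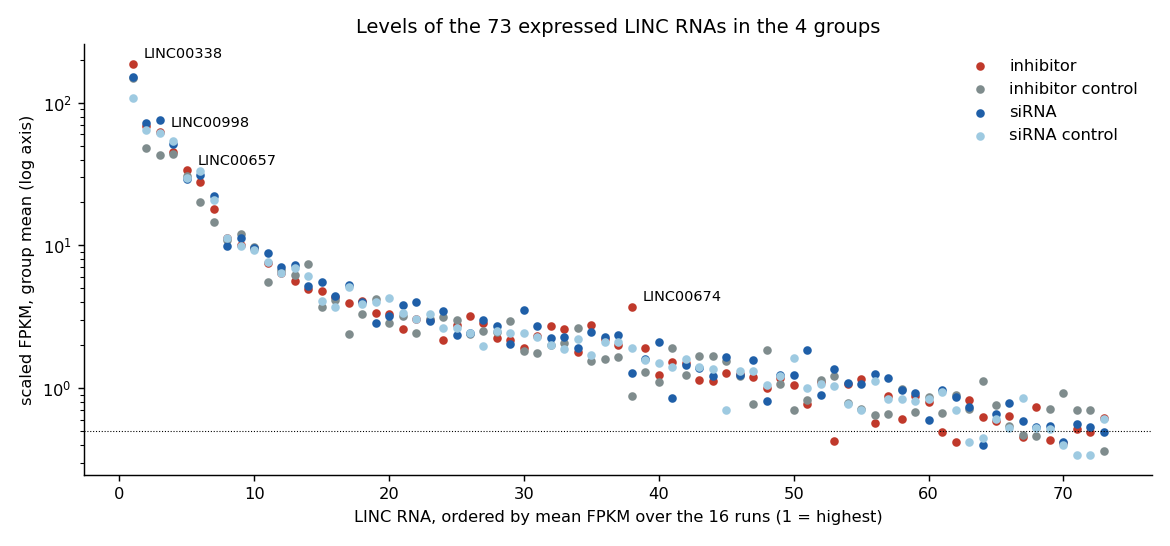
Mean scaled FPKM (log axis) of each of the 73 LINC RNAs in inhibitor, inhibitor control, siRNA and siRNA control libraries (n = 2 each), ordered by mean FPKM over the 16 runs, with a dotted line at 0.5. LINC00338 is highest in all 4 groups, and most LINC RNAs lie below 10.

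Most of these RNAs were scarce, and a handful carried most of the signal. Their median level was 2.02 FPKM, against 6.36 over all genes tested, and 9 of the 73 reached 10. The 5 most abundant took between 60.5% and 68.6% of the summed LINC signal of a library. Summed over the 73, the scaled FPKM was 567 and 632 in inhibitor libraries, 503 and 504 in inhibitor controls, 606 and 597 in siRNA libraries, and 531 and 527 in siRNA controls. Without LINC00338 these sums were 410.2 and 412, 356 and 351, 453 and 447, and 419 and 422 in the same order of groups, so the inhibitor control libraries were lowest in both sums. FPKM and scaled FPKM are per length, so levels of different genes can be compared, as far as the transcript length that Cufflinks assumed is right.

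LINC00338 (chromosome 17, 75082798 to 75091068, hg19), now named SNHG20 as a host gene of small nucleolar RNAs, was the most abundant. Its scaled FPKM was 157 and 219.9 in inhibitor libraries, 146 and 153 in inhibitor controls, 154 and 149.6 in siRNA libraries and 112 and 105 in siRNA controls. The siRNA control libraries were lowest and 1 inhibitor library was highest. This level rested on few fragments: the Cufflinks confidence intervals implied a median of 149 fragments a library, against 4346 for LINC00657 at a lower FPKM, and its locus overlaps SEC14L1. Gene-level FPKM do not tell which transcript of the locus those fragments came from, so its rank and its share of the summed signal are uncertain.

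LINC00493 and LINC00998, which encode the small membrane proteins SMIM26 and SMIM30, were next at means of 63.3 and 60.2 FPKM over the 16 runs. LINC00152 (CYTOR), a noncoding RNA reported at raised levels in many tumours, was at 45.1 and 45.98 in inhibitor libraries, 45.4 and 41.6 in inhibitor controls, 50.5 and 51.99 in siRNA libraries and 53.5 and 53.9 scaled FPKM in siRNA controls, and the siRNA control libraries lay above all others. LINC00657 (NORAD), which binds PUMILIO proteins and is induced by DNA damage, was among the steadiest. It stood at 33.7 and 33.4 in inhibitor libraries, 30.5 and 30.6 in inhibitor controls, 29.3 and 28.9 in siRNA libraries and 31.04 and 28.8 in siRNA controls, 1.17-fold between its lowest and highest library. LINC00094 (BRD3OS, transcribed opposite BRD3) varied least of the 73, between 9.06 and 10.04 scaled FPKM, or 1.11-fold. LINC00116 (MTLN), LINC00467, LINC00963 and LINC00969 (MUC20-OT1) made up the rest of the 10 most abundant, at 27.9, 18.8, 10.9 and 10.8 FPKM over the 16 runs.

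Most of the set was present in every group. In all 4 groups 62 of the 73 averaged at least 0.5 FPKM, 9 did so in 2 or 3 groups, and LINC01001 and LINC00115 did so only in inhibitor controls, all counted in FPKM as deposited. LINC00115 was at 0.345 and 0.472 in inhibitor libraries, 0.671 and 1.17 in inhibitor controls, 0.4502 and 0.389 in siRNA libraries and 0.428 and 0.363 scaled FPKM in siRNA controls. Its inhibitor control libraries lay above the rest, and it is 1 of the 7 RNAs counted so. It was chosen only through that group, so this order is partly built into the choice. Its log2 difference of -0.43 ± 0.16 between inhibitor and inhibitor control did not pass (adjusted p = 0.0714), nor did that of 0.01 ± 0.16 between inhibitor and siRNA control (adjusted p = 0.984). LINC01001 was at 0.168 and 0.696 scaled FPKM in inhibitor libraries, 0.931 and 0.4903 in inhibitor controls, 0.4705 and 0.605 in siRNA libraries and 0.472 and 0.551 in siRNA controls, which all overlap. LINC00854 (CCDC200) was listed at 0 in inhibitor control replicate 2 and at up to 2.1 scaled FPKM elsewhere. Of the others, 40 varied by less than 2-fold between the lowest and highest of the 8 libraries and 11 by at least 3-fold, and LINC00674 varied most, by 10.5-fold.

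The LINC name covers loci of several kinds. In GENCODE release 29, which could be matched for 71 of the 73, 42 are lincRNA genes, 7 processed transcripts, 5 antisense genes, 5 pseudogenes, 3 sense-overlapping genes and 1 a bidirectional-promoter RNA. Another 8 are now protein-coding genes, LINC00493 (SMIM26), LINC00998 (SMIM30), LINC00116 (MTLN), LINC00094 (BRD3OS), LINC00984 (INAFM2), LINC01155 (KANTR), LINC00854 (CCDC200) and LINC01125 (C2orf92). In the files' hg19 coordinates 37 of the 73 overlap another listed gene and 16 overlap a gene that was tested. Since it is not stated whether counting used the strand, reads of overlapping genes may be shared. By the longest GENCODE 29 transcript of each gene, the LINC genes have medians of 2253 bases, 3 exons and 47.1% GC. The medians for 11740 tested protein-coding genes, by the same choice, are 3658 bases, 8 exons and 48.5% GC. A near-identical copy was one of at least 98% identity over at least 50% of the longest transcript. Such a copy was found for LINC01106 and LINC01123 (each other's copy), LINC00843 and LINC01001, whose values are therefore uncertain.

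With the inhibitor, 10 of the 73 LINC RNAs differed from the inhibitor controls (limma adjusted p under 0.05 over all genes tested), 6 higher and 4 lower, or 13.7%, whereas 30.3% of all genes tested differed (14.6% higher, 15.7% lower). The higher RNAs were led in abundance by LINC00998, LINC00493 and LINC00116, whose loci encode small membrane proteins, and the lower ones were all below 10 FPKM. The log2 fold changes of the 73 ran from -0.62 to 1.31 with a median of 0.04 (all genes 0.01), 1 of the 10 calls exceeded a log2 of 1, and 23 of the 73 had an unadjusted p under 0.05. The inhibitor libraries did not overlap the inhibitor controls for 27 higher and 18 lower LINC RNAs of the 73, against 67.5% of all genes. In RNA of a whole culture, less RNA per cell and fewer cells with the RNA cannot be told apart. With quantile normalization 13 were called, 10 higher and 3 lower. Inhibitor libraries against siRNA controls gave no call among the 73 (0.0333% of all genes), 12 of 73 at an unadjusted p under 0.05 and a smallest adjusted p of 0.104.

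**Figure D2:**
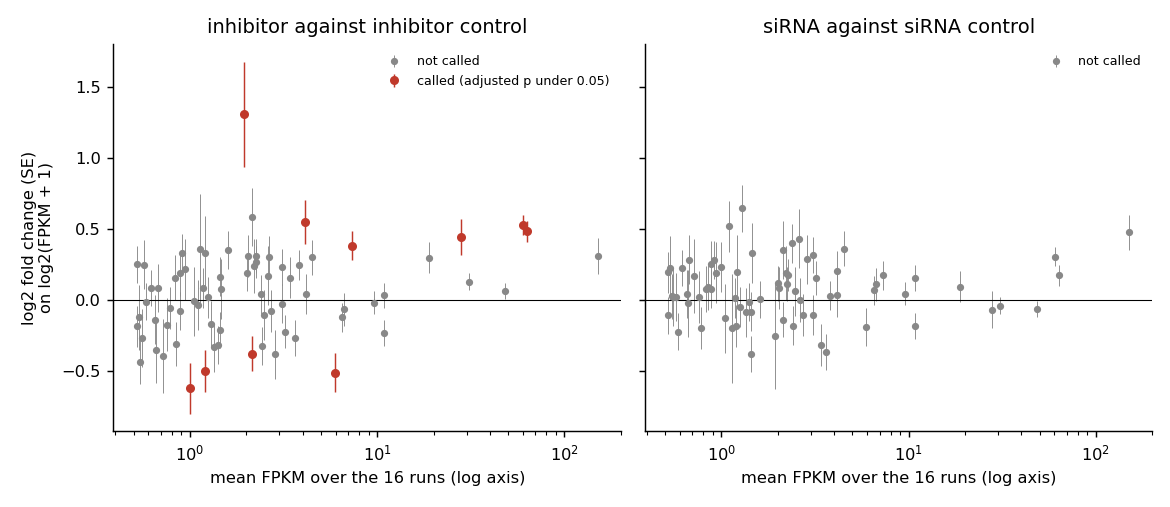
Log2 fold change on log2(FPKM + 1), with its standard error, of each of the 73 LINC RNAs against its mean FPKM over the 16 runs (log axis), for inhibitor against inhibitor control and siRNA against siRNA control (n = 2 libraries a group). The 10 called RNAs are red, 6 above 0 and 4 below; none is called with the siRNA.

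The share called was larger at higher levels, among the LINC RNAs and among all genes. Of the 36 LINC RNAs between 0.5 and 2 FPKM 3 were called (8.33%), against 6.65% of all genes at that level. Between 2 and 10 FPKM the counts were 4 of 28 LINC RNAs (14.3%) against 25.8% of all genes, and from 10 FPKM 3 of 9 (33.3%) against 50.7%. The median absolute log2 difference between replicate libraries was 0.16, 0.14 and 0.09 in these 3 ranges, and that between inhibitor and inhibitor control was 0.20, 0.24 and 0.30. The first is between single libraries and the second between means of 2, so the sizes are not on 1 scale. The median fragments a library implied by the confidence intervals were 9.88, 79.8 and 220.4. As other noncoding classes, 24 of 230 antisense RNAs were called (16 higher, 8 lower, 10.4%). Of 13 SNHG genes 4 were called (30.8%, against 30.3% of all genes tested), and these 4 were higher.

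**Figure D3:**
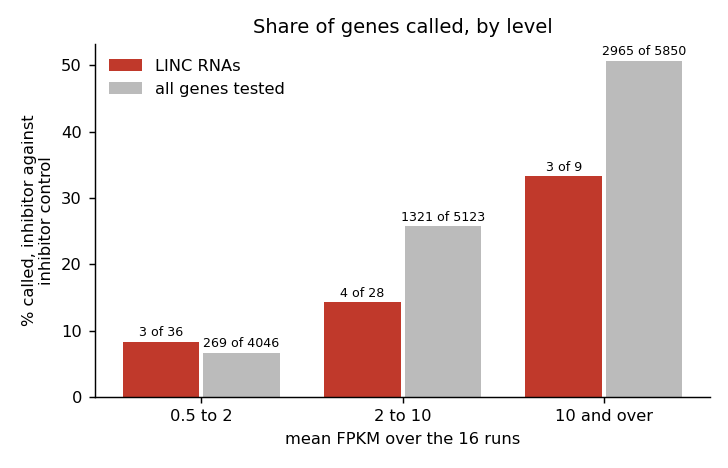
Share of genes called between inhibitor and inhibitor control (percent) in 3 ranges of mean FPKM over the 16 runs, for LINC RNAs (red) and all genes tested (grey), with the counts above the bars. LINC RNAs reach 33.3% and all genes 50.7% in the highest range.

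Of the RNAs that were higher with the inhibitor, 3 were abundant and came from the list of loci that encode small proteins. LINC00998 (chromosome 7, 112756773 to 112758668, hg19), which encodes the small membrane protein SMIM30, was at 62.1 and 62.2 scaled FPKM in inhibitor libraries, against 41.1 and 44.6 in inhibitor controls. The siRNA libraries held 76.4 and 75.3 and the siRNA controls 65.1 and 57.7, so the inhibitor control libraries were lowest of the 8. The log2 fold change was 0.53 ± 0.07 against inhibitor controls (SE, adjusted p = 0.000727) and 0.02 ± 0.07 against siRNA controls (adjusted p = 0.932). LINC00493 (chromosome 20, 18548064 to 18550207), which encodes the mitochondrial membrane protein SMIM26, was at 64.7 and 71.96 in inhibitor libraries, against 47.3 and 49.7 in inhibitor controls, with 77.2 and 68.01 in siRNA libraries and 63.98 and 64.2 in siRNA controls. Here too both inhibitor control libraries lay below the other 6. Its log2 fold change was 0.48 ± 0.07 against inhibitor controls (adjusted p = 0.00173) and 0.09 ± 0.07 against siRNA controls (adjusted p = 0.675). LINC00116 (chromosome 2, 110969106 to 111002997), which encodes mitoregulin, a peptide of the inner mitochondrial membrane with a role in respiration and fatty acid oxidation, was at 28.1 and 27.4 in inhibitor libraries, against 21.5 and 18.7 in inhibitor controls, with 30.4 and 31.98 in siRNA libraries and 27.98 and 38.3 in siRNA controls. Again the inhibitor control libraries were lowest, and the log2 fold change was 0.45 ± 0.13 (adjusted p = 0.0276), and -0.23 ± 0.13 against siRNA controls (adjusted p = 0.514). LINC00998 and LINC00493 kept their call in all 20 alternatives, at adjusted p values up to 0.0105 and 0.0193. LINC00116 did not pass without inhibitor replicate 1 (adjusted p = 0.113), inhibitor replicate 2 (0.0991) or inhibitor control replicate 2 (0.149), at log2 fold changes of 0.35 to 0.54 over the 8 libraries left out in turn, nor in the first sequencing runs alone (0.29, adjusted p = 0.151).

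The promoters of these 3 abundant genes are shown, in the order LINC00493, LINC00998 and LINC00116. All 3 RNAs were lowest in the inhibitor controls, but their log2 fold changes with the siRNA were 0.18, 0.30 and -0.07. The windows run from 250 bases before to 50 after the RefSeq start (GRCh38.p14, 5′ to 3′ on the gene's strand), with CG dinucleotides in capitals. They lie at chr20:18567182-18567481 (plus strand), chr7:113118505-113118804 (minus) and chr2:110212498-110212797 (minus), and hold 26, 22 and 25 CG dinucleotides.
LINC00493: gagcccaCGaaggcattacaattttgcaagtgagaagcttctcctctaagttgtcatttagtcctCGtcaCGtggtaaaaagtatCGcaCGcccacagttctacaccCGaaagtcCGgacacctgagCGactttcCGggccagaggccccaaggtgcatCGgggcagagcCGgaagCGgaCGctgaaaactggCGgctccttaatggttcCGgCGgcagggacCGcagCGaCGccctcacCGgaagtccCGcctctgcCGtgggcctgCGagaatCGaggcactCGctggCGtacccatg
LINC00998: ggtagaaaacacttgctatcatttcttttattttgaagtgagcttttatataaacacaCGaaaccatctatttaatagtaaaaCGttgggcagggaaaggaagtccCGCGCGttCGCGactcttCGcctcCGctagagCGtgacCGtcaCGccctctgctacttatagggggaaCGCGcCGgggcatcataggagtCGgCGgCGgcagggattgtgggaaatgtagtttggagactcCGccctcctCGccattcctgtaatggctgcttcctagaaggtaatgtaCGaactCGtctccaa
LINC00116: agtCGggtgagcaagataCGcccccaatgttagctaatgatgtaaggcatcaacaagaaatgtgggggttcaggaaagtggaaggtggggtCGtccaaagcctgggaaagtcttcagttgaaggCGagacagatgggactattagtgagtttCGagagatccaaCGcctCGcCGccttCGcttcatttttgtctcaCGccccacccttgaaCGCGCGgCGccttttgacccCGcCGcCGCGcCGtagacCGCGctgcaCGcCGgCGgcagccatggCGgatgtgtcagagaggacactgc

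**Figure D4:**
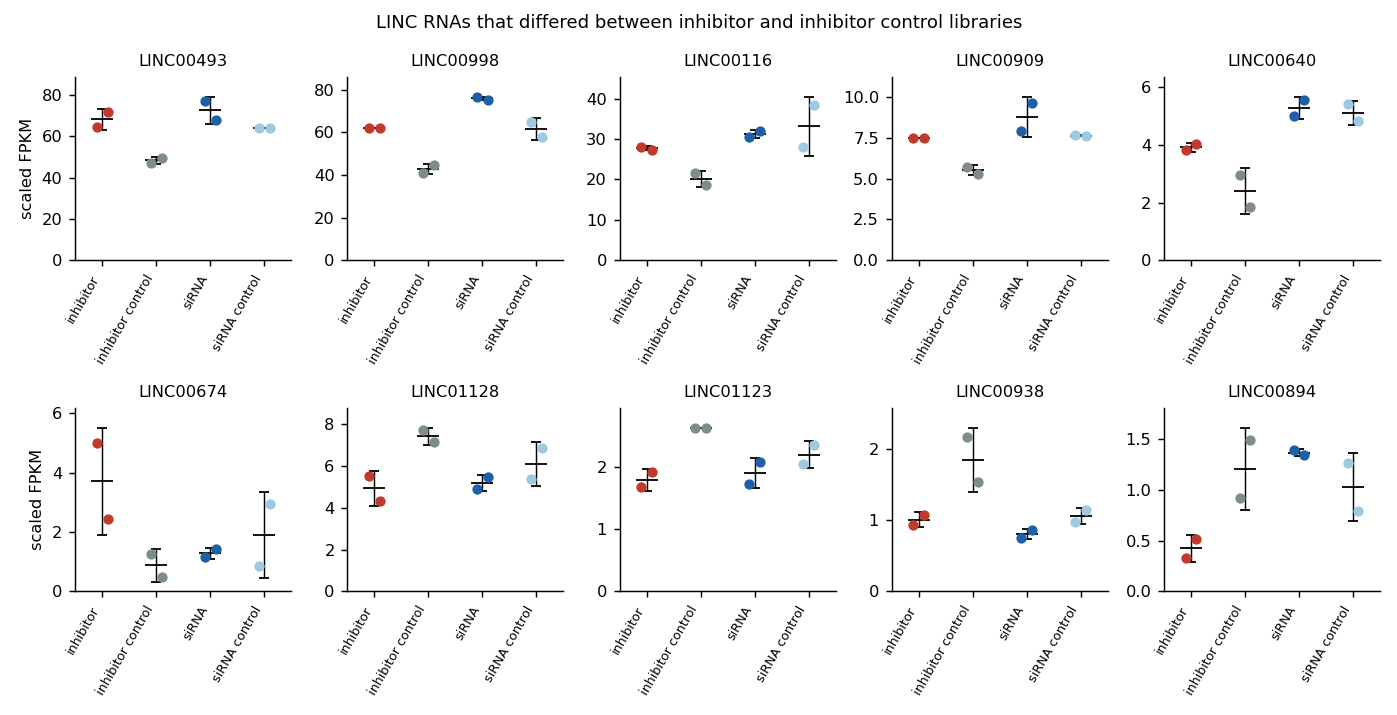
Scaled FPKM of the 10 LINC RNAs called between inhibitor and inhibitor control, in the libraries of the 4 groups (points), with mean and SD (bars, n = 2). In LINC00493, LINC00998, LINC00116, LINC00909 and LINC00640 the inhibitor control libraries lie below the other 6, and in LINC01128, LINC01123 and LINC00938 above them.

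The other 3 higher RNAs were scarcer. LINC00909 (chromosome 18, 72259010 to 72265744), which overlaps ZNF407 and starts head to head with it in GENCODE 29, was at 7.49 and 7.498 scaled FPKM in inhibitor libraries, against 5.74 and 5.301 in inhibitor controls, with 7.904 and 9.64 in siRNA libraries and 7.65 and 7.59 in siRNA controls. The inhibitor control libraries were lowest, and the log2 fold change was 0.38 ± 0.10 (adjusted p = 0.0215), against -0.02 ± 0.10 relative to siRNA controls (adjusted p = 0.955). ZNF407 itself was not called, at a log2 fold change of -0.31 against inhibitor controls (adjusted p = 0.0592) and -0.19 against siRNA controls (adjusted p = 0.536). LINC00640 (chromosome 14, 51800111 to 51832275) was at 3.81 and 4.04 in inhibitor libraries, against 2.96 and 1.84 in inhibitor controls, with 5.002 and 5.55 in siRNA libraries and 5.42 and 4.82 in siRNA controls. Its inhibitor libraries lay above their controls and below both siRNA control libraries, with log2 fold changes of 0.55 ± 0.15 (adjusted p = 0.0258) and -0.31 ± 0.15 (adjusted p = 0.475). LINC00674 (chromosome 17, 66098049 to 66111659), annotated as a transcribed pseudogene, had the largest log2 fold change of the 10 and the least data. It was at 4.99 and 2.43 in inhibitor libraries, against 1.27 and 0.473 in inhibitor controls, with 1.14 and 1.41 in siRNA libraries and 0.865 and 2.93 in siRNA controls, on a median of 2.35 implied fragments a library. The inhibitor range overlaps that of the siRNA controls, and the log2 fold changes were 1.31 ± 0.37 (adjusted p = 0.0274) and 0.74 ± 0.37 (adjusted p = 0.4798). Leaving out single libraries ended these calls, with log2 fold changes that stayed above 0. LINC00909 had an adjusted p of 0.0888 or 0.101 without inhibitor replicate 1 or 2 and of 0.0527 or 0.109 without inhibitor control replicate 1 or 2. LINC00640 had 0.0819 or 0.126 without inhibitor replicate 1 or 2 and 0.144 without inhibitor control replicate 2, and LINC00674 had 0.173 without inhibitor replicate 1 and 0.149 without inhibitor control replicate 2. Over the 8 libraries left out in turn, the log2 fold change ran over 0.33 to 0.43 for LINC00909 and 0.91 to 1.70 for LINC00674. That of LINC00640 ran over 0.31 to 0.79, and was lowest without inhibitor control replicate 2 and highest without inhibitor control replicate 1.

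The 4 RNAs that were lower with the inhibitor had mean levels below 10 FPKM. LINC01128 (chromosome 1, 762988 to 794826), which lies 86 bases from LINC00115, was at 5.54 and 4.33 scaled FPKM in inhibitor libraries, against 7.72 and 7.14 in inhibitor controls, with 4.92 and 5.48 in siRNA libraries and 5.37 and 6.84 in siRNA controls. The inhibitor control libraries were highest, and the log2 fold change was -0.51 ± 0.14 (adjusted p = 0.0211), against -0.26 ± 0.14 relative to siRNA controls (adjusted p = 0.499). LINC00938 (chromosome 12, 46119510 to 46121558), 1890 bases from ARID2, was at 0.927 and 1.08 in inhibitor libraries, against 2.17 and 1.53 in inhibitor controls, with 0.752 and 0.858 in siRNA libraries and 0.973 and 1.14 in siRNA controls. Its inhibitor controls again lay above the other 6, with a log2 fold change of -0.50 ± 0.15 (adjusted p = 0.0319) and of -0.04 ± 0.15 relative to siRNA controls (adjusted p = 0.944). ARID2, a subunit of a SWI/SNF chromatin remodelling complex, was also lower with the inhibitor, by a log2 fold change of -0.40 against inhibitor controls (adjusted p = 0.00906), and was at -0.01 against siRNA controls (adjusted p = 0.983). LINC01123 (chromosome 2, 110744640 to 110753717) was at 1.67 and 1.93 in inhibitor libraries, against 2.63 and 2.64 in inhibitor controls, with 1.74 and 2.08 in siRNA libraries and 2.05 and 2.36 in siRNA controls, and its copy LINC01106 was at 2.01 and 2.32 in inhibitor libraries against 2.88 and 3.03 in inhibitor controls. Both were highest in the inhibitor controls, and the log2 fold changes were -0.38 ± 0.12 (adjusted p = 0.0481) for LINC01123 and -0.32 ± 0.14 (adjusted p = 0.107) for LINC01106. Against siRNA controls they were -0.19 ± 0.12 (adjusted p = 0.572) and -0.12 ± 0.14 (adjusted p = 0.787).

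LINC00894 (chromosome X, 149106846 to 149392815), which overlaps CXorf40B and starts head to head with it in GENCODE 29, differed from the other lower RNAs in its order of groups. It was at 0.329 and 0.5196 scaled FPKM in inhibitor libraries, against 0.921 and 1.495 in inhibitor controls, with 1.39 and 1.34 in siRNA libraries and 1.27 and 0.791 in siRNA controls. Here the inhibitor libraries were lowest of the 8, on a median of 3.44 implied fragments a library. The log2 fold change was -0.62 ± 0.18 against inhibitor controls (adjusted p = 0.0276) and -0.50 ± 0.18 against siRNA controls, which did not pass (adjusted p = 0.346). CXorf40B was lower with the inhibitor as well, at a log2 fold change of -0.67 against inhibitor controls (adjusted p = 0.0112), and was at 0.05 against siRNA controls (adjusted p = 0.932), and reads of this overlapping pair may be shared. Leaving out single libraries ended the calls of the 4 lower RNAs too, with log2 fold changes that stayed below 0. LINC01128 had an adjusted p of 0.152 without inhibitor replicate 2 and of 0.103 or 0.0541 without inhibitor control replicate 1 or 2. LINC00938 had 0.153 or 0.0929 without inhibitor replicate 1 or 2 and 0.192 without inhibitor control replicate 1. LINC00894 had 0.148 or 0.0678 without inhibitor replicate 1 or 2 and 0.165 without inhibitor control replicate 2. LINC01123 lost its call without any 1 of the 8 libraries, with adjusted p values between 0.0507 and 0.223. The log2 fold changes ran over -0.66 to -0.37 for LINC01128, -0.66 to -0.34 for LINC00938, -0.81 to -0.43 for LINC00894 and -0.44 to -0.31 for LINC01123, so some of these calls ended while the difference was as large or larger. LINC00894 passed in neither set of sequencing runs alone, at -0.81 in the first (adjusted p = 0.136) and -0.32 in the second (adjusted p = 0.346). Neither did LINC00909 (adjusted p = 0.0606 and 0.395), LINC00640 (0.181 and 0.0505), LINC00938 (0.0656 and 0.181) or LINC01123 (0.114 and 0.211). LINC01128 and LINC00674 did not pass in the first runs alone, at -0.33 (adjusted p = 0.296) and 0.96 (adjusted p = 0.355). Both passed in the second runs alone (adjusted p = 0.0199 and 0.00732).

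Promoters of 3 of the scarcer RNAs are shown in the same form, since LINC00909 and LINC00894 start head to head with a protein-coding gene and LINC00938 holds few CG dinucleotides. They lie at chr18:74597786-74598085 (minus strand), chr12:45727872-45728171 (minus) and chrX:149938298-149938597 (plus), with 28, 9 and 31 CG dinucleotides.
LINC00909: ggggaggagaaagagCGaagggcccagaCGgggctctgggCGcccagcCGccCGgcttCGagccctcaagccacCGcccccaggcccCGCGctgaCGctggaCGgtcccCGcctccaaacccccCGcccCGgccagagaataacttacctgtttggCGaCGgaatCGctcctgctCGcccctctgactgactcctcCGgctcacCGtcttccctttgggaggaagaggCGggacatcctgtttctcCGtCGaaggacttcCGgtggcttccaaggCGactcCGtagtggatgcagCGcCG
LINC00938: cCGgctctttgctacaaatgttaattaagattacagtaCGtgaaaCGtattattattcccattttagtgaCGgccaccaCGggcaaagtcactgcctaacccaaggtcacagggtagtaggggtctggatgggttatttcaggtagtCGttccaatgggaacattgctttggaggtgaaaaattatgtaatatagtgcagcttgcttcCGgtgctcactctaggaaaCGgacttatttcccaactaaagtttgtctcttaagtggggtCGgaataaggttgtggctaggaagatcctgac
LINC00894: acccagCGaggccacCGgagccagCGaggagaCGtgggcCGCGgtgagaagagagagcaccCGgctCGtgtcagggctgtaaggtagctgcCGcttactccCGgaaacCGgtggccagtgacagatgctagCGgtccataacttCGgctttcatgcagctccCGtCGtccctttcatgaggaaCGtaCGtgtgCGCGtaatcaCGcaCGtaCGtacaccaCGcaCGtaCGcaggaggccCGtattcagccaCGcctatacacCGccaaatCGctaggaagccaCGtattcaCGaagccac

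RefSeq promoters were matched for 54 of the 73 by current or former symbol and were compared with all 35114 in the table. The median number of CG dinucleotides was 16 in LINC promoters and 14 in all, and the median GC content was 58.2% and 58.7%. Motifs were searched on both strands as exact letters. The ETS motif CCGGAAG occurred in 12 LINC promoters (22.2%) and in 10.3% of all, among them LINC00493, LINC00909 and LINC00938 printed above. The CCAAT box (CCAAT) occurred in 20 (37.0%) against 34.6% of all, the E-box CACGTG in 5 (9.26%) against 7.26%, and the TATA box TATAAA in 4 (7.41%) against 11.5%. These matches describe letters in the window and were not tested.

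Of the LINC genes known to encode small proteins, 8 of the 9 listed are in the files and 3 reach the level required, the LINC00998, LINC00493 and LINC00116 loci described above. All 3 were called higher in inhibitor against inhibitor control libraries (14.6% of all genes) and in siRNA control against inhibitor control libraries (16.2%), comparisons that share the inhibitor controls, and 0 of 3 in the others. All 3 loci had means above 10 FPKM, a level at which 50.7% of all genes were called with the inhibitor, in either direction. The median log2 fold change of the 3 was 0.48 with the inhibitor, against 0.04 for the 73 and 0.01 for all genes, and 0.18 with the siRNA. The list is a chosen subset. Of the 8 that GENCODE 29 types as protein-coding these 3 were called with the inhibitor and 5 were not, LINC00094 at -0.02, LINC00984 at 0.30, LINC01155 at 0.08, LINC00854 at 0.36 and LINC01125 at 0.16, and the median over the 8 was 0.33. Of 17 listed LINC RNAs described in cancer cells, 16 are in the files and 9 were expressed, and 0 of 9 were called with the inhibitor (30.3% of all genes) or the siRNA (0.979%), with median log2 fold changes of 0.13 and 0.09. LINC00460, LINC00511, LINC00662 and LINC00346, all reported at raised levels in tumours, were at 1.605 to 7.92 scaled FPKM in all 8 libraries. LINC00460 was at 2.05 and 1.76 in inhibitor libraries, 1.66 and 1.99 in inhibitor controls, 3.08 and 3.98 in siRNA libraries and 2.5 and 2.34 in siRNA controls. Its siRNA libraries lay above all others, yet it was not called with the siRNA, at a log2 fold change of 0.40 ± 0.14 (adjusted p = 0.169), nor between inhibitor and siRNA libraries, at -0.64 ± 0.14 (adjusted p = 0.0728). LINC00704 (MANCR, a mitosis-associated RNA) had a log2 fold change of 0.23 with the inhibitor and 0.32 with the siRNA, and LINC00467 of 0.30 and 0.09, none past the threshold.

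After G9a siRNA, 0 of the 73 LINC RNAs passed the test (limma, adjusted p under 0.05), whereas 0.979% of all genes did, and 10 of the 73 had an unadjusted p under 0.05. The smallest adjusted p was 0.0674, that of LINC00998. The siRNA libraries did not overlap their controls for 24 higher and 10 lower LINC RNAs of the 73, against 47.9% of all genes, and the median log2 fold change was 0.07, against -0.01 over all genes. At so low a background, a count of 0 among 73 genes is not a result about the LINC RNAs. LINC00998 was at 76.4 and 75.3 scaled FPKM in siRNA libraries, against 65.1 and 57.7 in siRNA controls, a log2 fold change of 0.30 ± 0.07, and passed without siRNA control replicate 1 (adjusted p = 0.0383). LINC00338 was at 154 and 149.6 in siRNA libraries, against 112 and 105 in siRNA controls, and the groups did not overlap. Its log2 fold change was 0.48 ± 0.13, short of the threshold (adjusted p = 0.0969) but past it without inhibitor replicate 1 (0.0304) or inhibitor replicate 2 (0.0299), which enter the shared estimate of the spread. With the inhibitor LINC00338 had a log2 fold change of 0.31 ± 0.13 (adjusted p = 0.0952), which depended on 1 inhibitor library. It was 0.56 without inhibitor replicate 1 (adjusted p = 0.00264) and 0.07 without inhibitor replicate 2 (adjusted p = 0.548). Against siRNA controls the inhibitor libraries gave 0.77 ± 0.13 (adjusted p = 0.104).

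**Figure D5:**
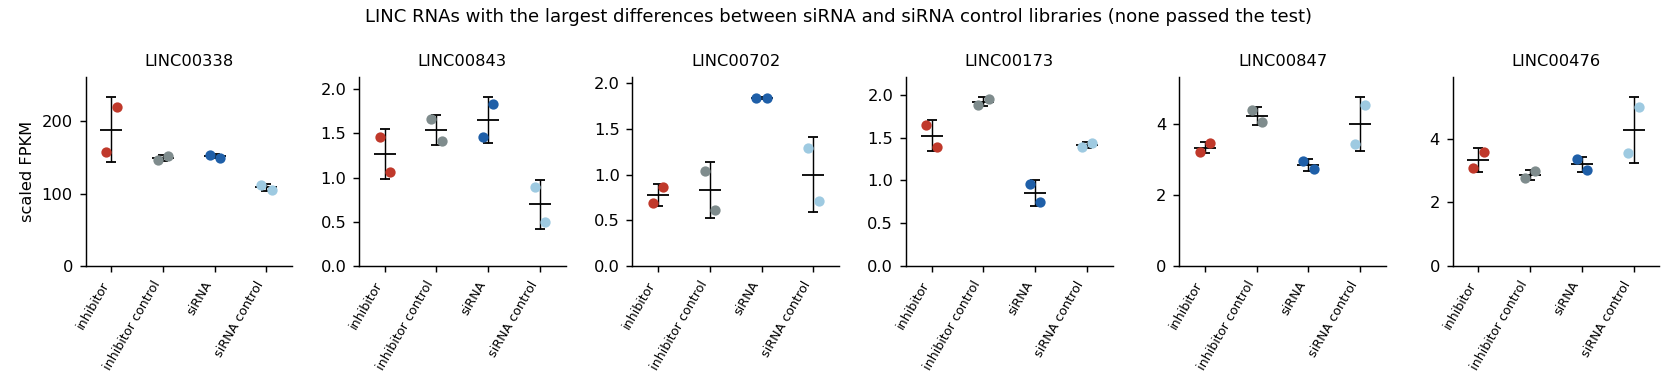
Scaled FPKM of the 6 LINC RNAs with the largest non-overlapping differences between siRNA and siRNA control libraries, in the 4 groups (points), with mean and SD (bars, n = 2). LINC00338, LINC00843 and LINC00702 lie higher in siRNA libraries and LINC00173, LINC00847 and LINC00476 lower, and none passed the test.

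Of the 3 largest non-overlapping increases and the 3 largest decreases with the siRNA, those besides LINC00338 were in scarce RNAs and did not pass. LINC00843 was at 1.47 and 1.83 scaled FPKM in siRNA libraries, against 0.896 and 0.504 in siRNA controls, a log2 fold change of 0.65 ± 0.16 (adjusted p = 0.0894) that was 1.17 in the first sequencing runs alone and 0.17 in the second (adjusted p = 0.16 and 0.726), and 1.46 and 1.06 in inhibitor libraries against 1.66 and 1.42 in inhibitor controls. The siRNA control libraries were lowest of the 8. LINC00702 was at 1.84 and 1.83 in siRNA libraries, against 1.29 and 0.7098 in siRNA controls, a log2 fold change of 0.52 ± 0.18 (adjusted p = 0.168). LINC00173 was at 0.9603 and 0.743 in siRNA libraries, against 1.39 and 1.44 in siRNA controls, a log2 fold change of -0.38 ± 0.13 (adjusted p = 0.1599), and turned to 0.22 in the first sequencing runs alone (adjusted p = 0.689). Its siRNA libraries were lowest of the 8. LINC00847 was at 2.96 and 2.73 in siRNA libraries, against 3.46 and 4.54 in siRNA controls, with a log2 fold change of -0.37 ± 0.13 (adjusted p = 0.169). LINC00476, which starts head to head with the DNA repair gene ERCC6L2 in GENCODE 29, was at 3.36 and 3.02 in siRNA libraries, against 3.54 and 4.99 in siRNA controls, with a log2 fold change of -0.32 ± 0.15 (adjusted p = 0.288). In all 5 the siRNA and siRNA control libraries did not overlap, but siRNA control replicate 2 lay well above replicate 1 in LINC00847 and LINC00476, whose log2 fold changes were -0.21 and -0.12 without it.

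As many LINC RNAs differed between the 2 control groups as between inhibitor and inhibitor control libraries. In siRNA control against inhibitor control libraries 10 of the 73 LINC RNAs were called, 7 higher and 3 lower, against 32.2% of all genes (16.2% higher, 16.1% lower), and 7 were called in the FPKM as deposited, 3 higher and 4 lower. Without siRNA control replicate 2 the count was 5. The comparison shares the inhibitor controls with that of the inhibitor, so the values are set side by side. LINC00998 had a log2 difference of 0.51 between the controls (adjusted p = 0.000763) and 0.53 with the inhibitor, LINC00493 0.39 (adjusted p = 0.004097) and 0.48, and LINC00116 0.68 (adjusted p = 0.00404) and 0.45. LINC00640 had 0.87 between the controls and 0.55 with the inhibitor, LINC00909 0.40 and 0.38, and LINC00938 -0.46 and -0.50, all called. The other calls between the controls were LINC00152 at 0.30, LINC00467 at 0.48, LINC00338 at -0.46 and LINC00843 at -0.59. LINC00674, LINC01128, LINC01123 and LINC00894 had 0.57, -0.25, -0.18 and -0.12 between the controls, none of them called.

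No LINC RNA was called between inhibitor and siRNA libraries (1.09% of all genes, 16 of the 73 at an unadjusted p under 0.05, smallest adjusted p 0.0729 for LINC00460). The effect of the inhibitor, less that of the siRNA, was tested as a difference in the same fit and gave 0 calls among the 73, against 9.1% of all genes, with 10 of the 73 at an unadjusted p under 0.05. The smallest adjusted p was 0.0636, for LINC00843 at -0.82 ± 0.23, followed by 0.0693 for LINC00894 at -0.85 ± 0.25. Without siRNA control replicate 1 LINC00116 and LINC00674 passed. The 10 calls with the inhibitor and their absence with the siRNA are therefore not shown to differ between the treatments.

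The change of a LINC RNA was only weakly related to that of its nearest tested gene. Over the 57 that do not overlap a tested gene, the median distance to the nearest tested gene was 11880 bases, and the log2 fold changes of RNA and neighbour had a Spearman rho of 0.23 with the inhibitor and 0.19 with the siRNA. Over the 16 that overlap one, rho was 0.08 and -0.27. The points share libraries and controls, and some pairs share genes. LINC01128 and LINC00115 are each other's neighbour, so that pair enters from both sides. ANKRD10 is the neighbour of both LINC00346 and LINC00431. LINC00116 and LINC00704 are the neighbours of LINC01106 and LINC00702. No test was made. Among the called RNAs, LINC00640 and TMX1, 77352 bases away, had log2 fold changes of 0.55 and 0.43 against inhibitor controls (adjusted p = 0.00551 for TMX1), and TMX1 was at 0.35 against siRNA controls (adjusted p = 0.229). LINC00493 and SEC23B, 6005 bases away, had 0.48 and 0.22 (adjusted p = 0.0116 for SEC23B), and SEC23B was at 0.03 against siRNA controls (adjusted p = 0.844). In GENCODE 29, 6 of the LINC genes begin within 1000 bases of the start of a protein-coding gene on the other strand: LINC00909 (ZNF407), LINC00205 (POFUT2), LINC00476 (ERCC6L2), LINC00941 (CAPRIN2), LINC00894 (CXorf40B) and LINC01125 (ACTR1B). Gene extents there can differ from those of the files, in which the LINC00941 locus lies 40092 bases from CAPRIN2.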

How the data were processed

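Total RNA of HCT116 cells was sequenced after a stranded library preparation, per the labels' protocols. The submitters' processing notes name STAR 2.3.0e, SAMtools 0.1.19, Cufflinks and hg19, and the deposited values are gene-level FPKM from Cufflinks, per the file headers. The Cufflinks version, its options, the annotation and any use of strand in counting are not stated. FPKM hold no counts, so fragments behind a value were implied from the deposited confidence intervals, taken as 2 SD of counting error and summed over both runs. Each file has 63784 entries for 63653 genes, and 131 repeated entries were summed. The 2 runs of a library were averaged, genes with a mean of at least 0.5 FPKM and a locus of at least 300 bases kept (15019), and libraries scaled by median-of-ratios factors (0.88 to 1.09), giving scaled FPKM. Errors of levels are SD and of fold changes SE. Log2(scaled FPKM + 1) was tested two-sided with limma 3.58.1 in R 4.3.3 (mean-variance trend, 4 residual and 4.83 prior degrees of freedom, all 4 groups in 1 fit), with Benjamini-Hochberg adjustment over all genes tested. This scale understates changes of scarce genes. The script was tested on simulated data, with changes placed only in genes of a mean of at least 2 FPKM. True log2 changes of 0.5 were called in 34.3% of such genes with the inhibitor and 28.4% with the siRNA. Changes of 1 were called in 88.1% and 77.6%, so many changes of the smaller size were missed there. Annotation came from GENCODE 29 and RefSeq GRCh38.p14, and copies from blastn 2.17.0. The LINC genes, gene lists and tests were chosen with earlier results of these data known. Genes were named by rule: the 10 most abundant, all called with the inhibitor, the 3 largest non-overlapping differences each way with the siRNA, the expressed genes of 2 lists, those at the level limit or at that level in 1 group, and nearest tested genes. Alternatives changed scaling, pseudocount, filters, runs, the limma settings, the samples fitted and the replicate block, and left out each library. LINC01420 and LINC00673 were not analysed here, and 1 neighbouring gene is not reported here.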

Additional observations from a re-analysis of the deposited data

How the results depend on the processing

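Between inhibitor and inhibitor control, 10 LINC RNAs were called, and 2 without a filter on low values (2996 of 32406 genes called), 4 in the first sequencing runs alone, and 3 to 10 with 1 library left out. The count was 4 without inhibitor replicate 1, 3 without inhibitor replicate 2 and 4 without inhibitor control replicate 2, and it was within 1.5 times 10 (7 to 14) under the remaining alternatives. LINC00493 and LINC00998, the calls left without a filter, were called in each of these. LINC00431 was called in the first runs and without inhibitor control replicate 2, and LINC00888 in the first runs. Between siRNA control and inhibitor control the count of 10 became 5 without a filter and 6 in the first runs alone, and lay between 5 and 10 with 1 library left out. With 1 library left out the counts were 0 to 1 for siRNA against siRNA control, 0 to 1 for inhibitor against siRNA control (LINC00338 without inhibitor replicate 1), 0 to 0 for inhibitor against siRNA and 0 to 2 for the difference between the treatment effects. An arm left with 1 library was assumed to vary like the other groups. The median log2 fold change of the LINC RNAs with the inhibitor was 0.045, 0.097 in the first runs alone and 0.015 to 0.068 with 1 library left out, and with the siRNA 0.069 and 0.03 to 0.1. LINC00173 turned from a log2 fold change of -0.38 with the siRNA to 0.223 in the first runs alone. Apart from filters and left-out libraries, whose construction changes the genes tested or the number of samples, the cause of these moves was not tested. With the replicate number as a block, 9 were called with the inhibitor (LINC01123 at adjusted p = 0.0514 was not), 0 with the siRNA and 9 between the controls, and the labels do not say that the numbers pair the libraries: deviations of same-numbered libraries correlated at -0.057 to 0.038. A fit of only the groups compared was not possible for the difference between the treatment effects. Depth limits the scarcest RNAs most, with a median of 9.88 implied fragments a library between 0.5 and 2 FPKM.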

Other observations

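Most LINC genes of the files were silent or near silent in these cells. Of the 541 on the main chromosomes with a mean below 0.5 FPKM, 289 were listed at 0 in all 16 runs, 66 had a mean of at least 0.1, and 18 reached 0.5 in the mean of some group. A gene was counted as switched on if both control libraries of a treatment were below 0.1 FPKM and both treated libraries at or above 0.5, and as switched off in the opposite case. By that count 0 were switched on and 0 off with the inhibitor, and 0 on and 0 off with the siRNA. A gene switched strongly enough to reach a mean of 0.5 FPKM over the 16 runs could not appear in this count. The count of 0 is therefore partly fixed by the choice of genes. Genes below 0.5 FPKM were not tested. Levels of LINC00087, LINC00444 and LINC00852 are given in FPKM as deposited. LINC00087, which encodes the small protein SMIM10L2B, was picked once its values had been seen. It stood at 0.751 and 0.918 FPKM in siRNA libraries, against 0.238 and 0.228 in siRNA controls. Inhibitor libraries held 0.284 and 0.246, against 0.326 and 0.196 in inhibitor controls, so its siRNA libraries lay above the other 6. LINC00444, picked likewise, was at 1.07 and 0.858 in siRNA libraries, against 0.307 and 0 in siRNA controls, with 0 and 0.4204 in inhibitor libraries, against 0 and 0 in inhibitor controls. LINC00852, picked in the same way, was at 0.2698 and 0.2996 in inhibitor libraries, against 0.879 and 0.692 in inhibitor controls, and at 0.2997 and 0.254 in siRNA libraries, against 0.468 and 0.329 in siRNA controls, and its inhibitor controls lay above the other 6. LINC00958, LINC00707, LINC00473 and LINC00261, which have been described in tumours, were at 0.00697, 0, 0 and 0 FPKM over the 16 runs.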
